A study of Mus musculus with 26 samples.

Results

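The 9 genes described here encode transcription factors of blood stem cells: Hlf, Mecom, Prdm16, Meis1, Hoxa5, Hoxa9, Hoxa10, Hoxb4 and Hoxb5. They were chosen by name, with earlier results of these data known, and all 9 were among the 19938 genes measured. Each gene was read from 1 probe set, the one with the highest mean over the 26 arrays, and Mecom was the only member with more than 1. The arrays measured RNA of marrow cells separated by surface antigens from mice of 8 to 15 weeks. All mice carried a Gata1-EGFP transgene (Tg/+), a fluorescent (GFP) reporter of the erythroid and megakaryocytic factor Gata1. Values are log2 signals as deposited.

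PreMegE, the pre-megakaryocyte-erythroid progenitors (3 arrays), were lineage-negative, cKit-positive cells without Sca1, CD41, the Fc gamma receptors or CD105 that displayed CD150. GMP, the granulocyte-macrophage progenitors, were cells of the same lineage, cKit, Sca1 and CD41 gate with the Fc gamma receptors, split into GMP GFP+ (3 arrays) and GMP GFP- (4 arrays). PreGM, the pre-granulocyte-macrophage progenitors, lacked the Fc gamma receptors, CD150 and CD105, and were split into PreGM GFP+ and PreGM GFP- (3 arrays each). CLP, the common lymphoid progenitors (3 arrays), were B220-negative cells low in Sca1 and cKit with Flt3 and the IL-7 receptor. LMPP, the lymphoid-primed multipotent progenitors (4 arrays), had Sca1, cKit and high Flt3 but neither CD150 nor reporter signal. HSC GFP- (3 arrays), haematopoietic stem cells, had Sca1, cKit and CD150 but neither Flt3 nor reporter signal. The gates of PreMegE and CLP name no reporter level, and reporter-positive stem cells are not analysed here.

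Hlf is a PAR bZIP factor, and Mecom and Prdm16 are zinc finger proteins of the PRDM family; each is known from mouse knockouts to be needed for the upkeep of blood stem cells. The HOX genes lie in clusters on several chromosomes and encode homeodomain proteins, and in blood the genes of the A and B clusters are used most. Meis1, a homeodomain protein of the TALE class, binds DNA together with HOX and PBX proteins, and the pair of Meis1 and Hoxa9 is best known from leukaemia, where both keep progenitors immature.

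The upstream sequences of Hlf and Meis1, whose group means spread most when each gene is read by 1 probe set, and of both start sites of Mecom are shown, since Mecom was read by probe sets that match different transcripts. RefSeq promoters (build GRCm38.p6) were found for 8 of the 9 genes, and each line gives the 250 bases before the start in the 5' to 3' direction of the gene. The stretches are chr11:90390918-90391167 for Hlf, chr3:30509760-30510009 for the distal and chr3:30013205-30013454 for the proximal start of Mecom, and chr11:19018970-19019219 for Meis1, all on the minus strand. Capitals mark a match on either strand to 1 of 6 motifs. TGACAG is known as a motif of Meis1 and other TALE factors. AGATAA is known for Gata1 and its relatives, and TGATAA likewise. The Ets family is known for CCGGAA, Creb1 and its relatives for TGACGTCA, and TTACGTAA is that of Hlf and other PAR bZIP factors.
Hlf: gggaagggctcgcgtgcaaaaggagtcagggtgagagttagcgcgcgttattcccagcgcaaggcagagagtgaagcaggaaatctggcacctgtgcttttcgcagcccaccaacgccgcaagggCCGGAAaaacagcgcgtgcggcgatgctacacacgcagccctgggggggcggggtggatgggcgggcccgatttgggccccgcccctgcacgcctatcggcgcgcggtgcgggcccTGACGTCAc
Mecom distal: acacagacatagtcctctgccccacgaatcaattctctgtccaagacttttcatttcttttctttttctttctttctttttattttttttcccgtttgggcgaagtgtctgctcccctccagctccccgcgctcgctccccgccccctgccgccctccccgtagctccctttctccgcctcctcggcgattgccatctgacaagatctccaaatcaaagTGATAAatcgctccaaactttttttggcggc
Mecom proximal: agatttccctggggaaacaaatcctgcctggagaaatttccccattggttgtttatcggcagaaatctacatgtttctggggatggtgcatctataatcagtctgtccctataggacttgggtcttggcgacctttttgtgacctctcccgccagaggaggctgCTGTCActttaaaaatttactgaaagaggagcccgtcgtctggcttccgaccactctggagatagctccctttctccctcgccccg
Meis1: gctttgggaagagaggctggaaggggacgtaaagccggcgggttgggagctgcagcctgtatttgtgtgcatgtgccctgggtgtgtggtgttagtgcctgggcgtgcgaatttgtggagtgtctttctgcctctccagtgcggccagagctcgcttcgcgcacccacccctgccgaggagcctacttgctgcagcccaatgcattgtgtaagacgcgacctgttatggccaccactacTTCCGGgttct
The Hlf stretch holds CCGGAA and, next to the start, TGACGTCA. The distal Mecom stretch holds TGATAA, the proximal one TGACAG on the opposite strand, and the starts lie 496555 bases apart. The Meis1 stretch holds CCGGAA on the opposite strand. Over all 32851 promoters of this length, TGACAG is found in 15.86%, CCGGAA in 12.03%, AGATAA in 9.988%, TGATAA in 7.942%, TGACGTCA in 1.546% and TTACGTAA in 0.1126%. CCGGAA was the motif met most often among the 10 promoters of the members, in 3 of them, and a match is a description of letters, not a site.

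Array medians lay between 6.42 and 6.70, arrays of a group correlated with r of 0.950 to 0.989 over all genes, and the number of arrays limits the precision. The median of all values was 6.61, and a signal under it was not shown to exceed background, so no fold is given where a mean lies under it. Whether the arrays of a group stand for different animals is not given in the labels, and the p-values then reflect only array-to-array spread, which may be technical. In sorted bulk samples, fewer cells of a type and less RNA per cell cannot be told apart. HSC GFP- array 1 stood apart within its group: it correlated with r of 0.959 and 0.958 with arrays 2 and 3, which correlated with 0.980, and it read low for Mecom, Prdm16, Hoxa5 and Hoxb4. Leaving it out moves all 7 differences of a gene from HSC GFP- by the same amount: 0.11 for Hlf, -0.41 for Mecom, -0.23 for Prdm16, -0.07 for Meis1, -0.37 for Hoxa5, -0.07 for Hoxa9, 0.08 for Hoxa10, -0.23 for Hoxb4 and -0.08 for Hoxb5. Counts are given with and without it, and so are single results whose call it changes. Arrays of other groups deviated as much. The SD of deviations from the group means over all genes was 0.287 for HSC GFP- array 1. It was 0.316 for PreGM GFP- array 2, 0.289 for PreGM GFP- array 1 and 0.285 for PreMegE array 1. Among 9 measured sort marker genes, Flt3, Slamf1 (CD150) and Gata1, the gene behind the reporter, followed the gates here, and the others are not given. Flt3 averaged 11.44 in LMPP against 8.18 in HSC GFP-, Slamf1 4.91 against 7.15, and Gata1 8.48 in PreGM GFP+ against 6.73 in PreGM GFP-. Signal of marker genes of other lineages and cell types was present. The mean over 8 neutrophil markers was 8.44 to 9.46 on PreMegE arrays and 8.67 to 10.76 on GMP GFP- arrays, against 5.77 to 6.00 on HSC GFP- arrays. The mean over 8 endothelial markers was 7.03 to 7.18 on HSC GFP- arrays and 6.62 to 7.06 elsewhere. On each HSC GFP- array 5 of the 8 lay above the median signal. In HSC GFP-, Cdh5 (6.43) and Kdr (5.94) averaged below the median signal and Emcn (7.60), Vwf (7.28) and Pecam1 (8.74) above it. The mean over 7 megakaryocyte and platelet markers was 7.16 to 7.54 in PreMegE, 6.88 to 7.17 in PreGM GFP+ and 6.05 to 6.61 in the other 5 progenitor populations, against 6.77 to 7.13 in HSC GFP-. The mean over 7 B lymphoid markers was 7.27 to 8.55 in CLP, against 5.88 to 6.50 in HSC GFP-. The mean over 5 erythroid markers was 7.55 to 7.76 in PreMegE, against 6.71 to 6.98 in HSC GFP-. Stromal (8 markers) and T and NK lymphoid (8 markers) means lay between 6.03 and 6.65 on all arrays. Whether this signal came from other cells or from the sorted cells themselves was not tested, nor was its part in the results.

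Over the 8 populations, 8 of the 9 genes varied by the moderated F test of limma (adjusted p under 0.05), and 15.2% of all genes did. Hoxb5 was the exception (adjusted p = 0.392). Against HSC GFP-, 0 members were called higher in any progenitor population, where limma called higher 0.988% of all genes in PreMegE, 1.89% in GMP GFP+, 7.10% in GMP GFP-, 1.50% in PreGM GFP+, 2.38% in PreGM GFP-, 2.99% in CLP and 1.03% in LMPP. The differences were below 0 for all 9 genes in 6 of the 7 comparisons and for 8 in LMPP, where Hoxa9 was the exception. In PreMegE 5 members were called lower, where 2.19% of all genes were. In GMP GFP+ 6 were (2.21% of all genes), in GMP GFP- 8 (5.81%), in PreGM GFP+ 7 (2.13%), in PreGM GFP- 5 (2.38%), in CLP 5 (3.11%) and in LMPP 2 (1.28%). Without HSC GFP- array 1, 6 members were called lower in PreMegE, 7 in GMP GFP+, 8 in GMP GFP-, 6 in PreGM GFP+, 5 in PreGM GFP-, 6 in CLP and 3 in LMPP. The median difference of the 9 genes was -0.86 in PreMegE, -0.76 in GMP GFP+, -0.99 in GMP GFP-, -0.76 in PreGM GFP+, -0.79 in PreGM GFP-, -0.97 in CLP and -0.47 in LMPP, while the median over all genes stayed between -0.05 and 0.03. These 7 comparisons share the HSC GFP- arrays, so they are not independent of each other.

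**Figure D1:**
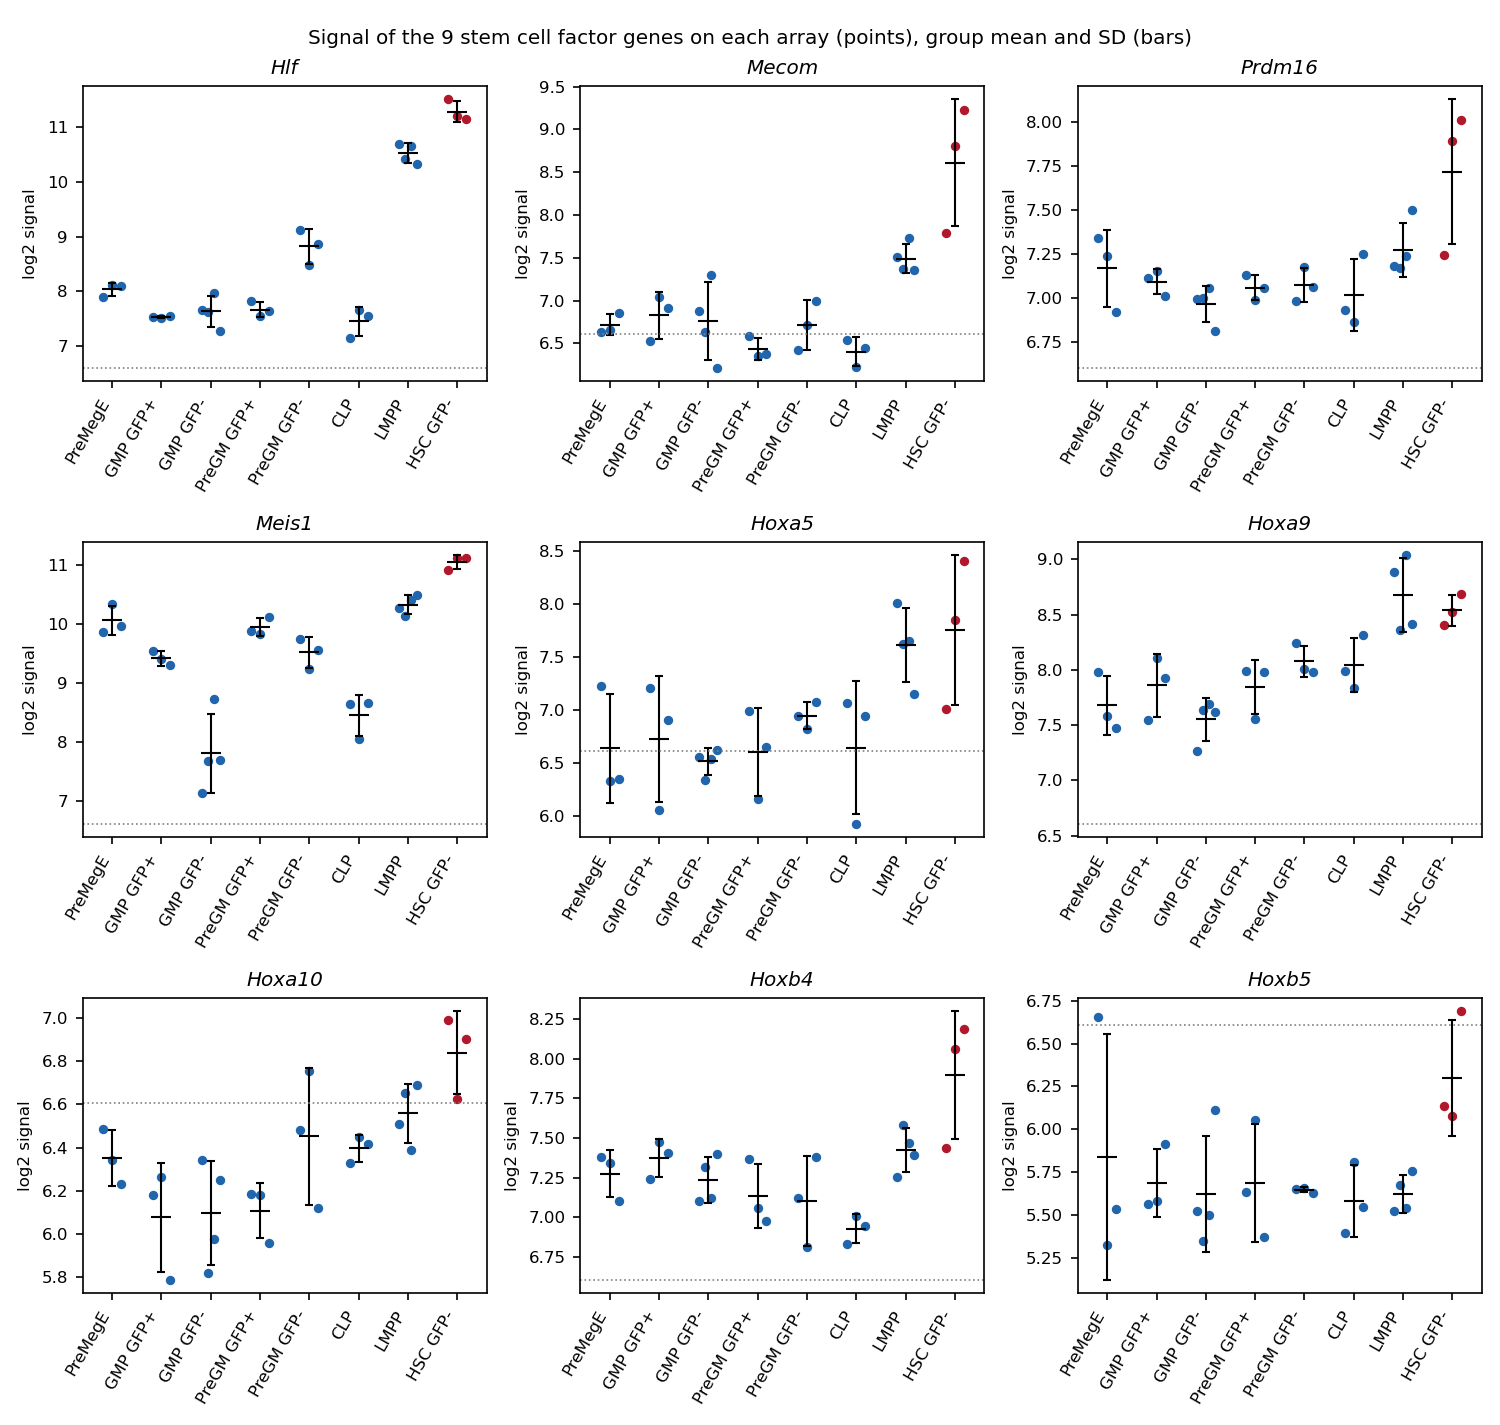
Log2 signal (vertical axis, its own range in each panel) of the 9 genes on each array, with the group mean and SD as bars, HSC GFP- in red at the right and the median of all values, 6.61, dotted. Hlf shows a step between LMPP and the other progenitors, Meis1 is lowest in GMP GFP-, and all group means of Hoxb5 lie under the dotted line.

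**Figure D2:**
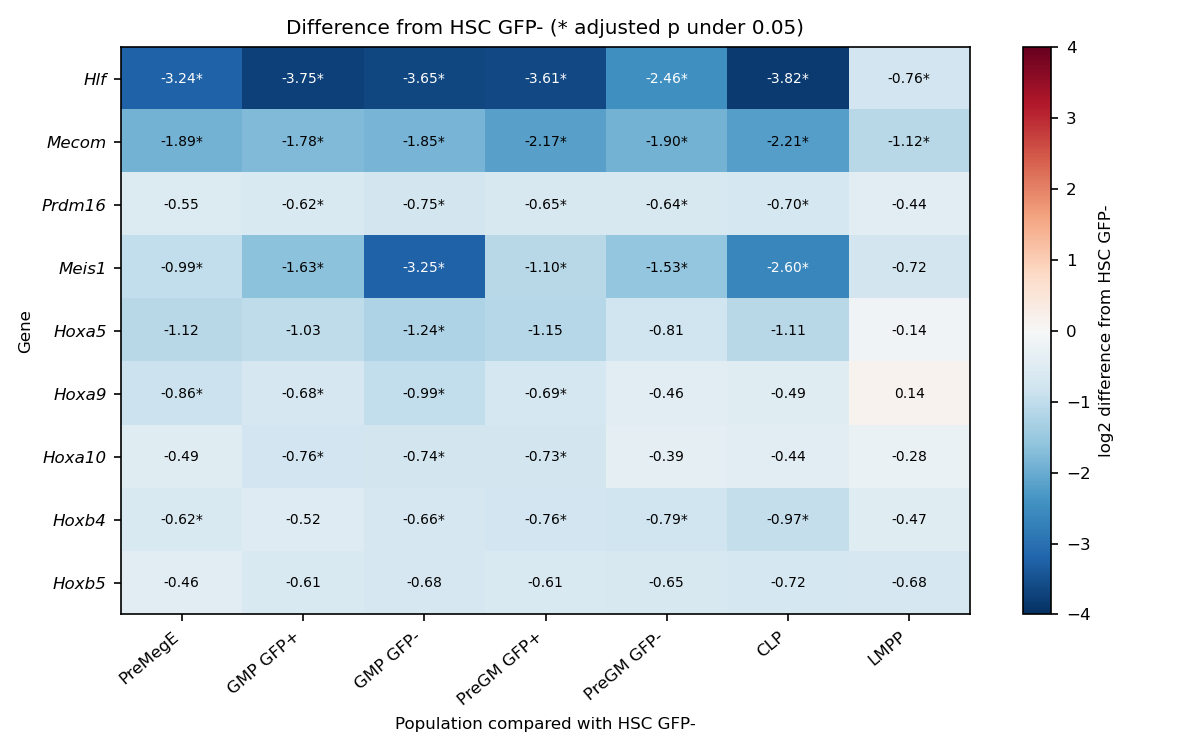
Log2 difference of each population (columns) from HSC GFP- for each gene (rows), with an asterisk where the adjusted p of limma is under 0.05. The differences run from -3.82 for Hlf in CLP to 0.14 for Hoxa9 in LMPP.

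Hlf was called lower than in HSC GFP- in all 7 progenitor populations. Its arrays fell into 4 levels that did not overlap: HSC GFP-, LMPP, PreGM GFP- and the 5 other populations together. Its log2 signal was 7.90, 8.11 and 8.10 in PreMegE, 7.53, 7.51 and 7.56 in GMP GFP+, 7.66, 7.62, 7.98 and 7.28 in GMP GFP- and 7.82, 7.54 and 7.64 in PreGM GFP+. It was 9.13, 8.47 and 8.86 in PreGM GFP- and 7.15, 7.67 and 7.54 in CLP, against 10.69, 10.41, 10.66 and 10.33 in LMPP and 11.50, 11.20 and 11.14 in HSC GFP-. Within the lowest level PreMegE came first, above PreGM GFP+ on every array but reached by GMP GFP- array 3, and PreGM GFP+, GMP GFP-, GMP GFP+ and CLP followed, each overlapping the next. Against HSC GFP- the signal was 14.2-fold lower in CLP (log2 difference -3.82, SE 0.17, limma adjusted p = 1.95e-12), 13.4-fold in GMP GFP+, 12.5-fold in GMP GFP-, 12.2-fold in PreGM GFP+, 9.46-fold in PreMegE and 5.50-fold in PreGM GFP-. These 6 calls held under every alternative. LMPP differed from HSC GFP- by only 1.69-fold (-0.76, SE 0.16, adjusted p = 0.0101), and this call was lost without HSC GFP- array 1 (-0.65, adjusted p = 0.0745) and with only the groups compared fitted (adjusted p = 0.0509).

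Between progenitors, limma called 3 members in CLP over LMPP (Hlf, Mecom and Meis1, all lower), where 1.57% of all genes were called either way. It called 1 in PreGM GFP- over LMPP (Hlf, lower, 0.873% of all genes) and 2 in GMP GFP- over PreGM GFP- (Hlf and Meis1, lower, 1.39%). It called 0 in PreMegE over PreGM GFP+ (0.0652% of all genes, with 1 member at an unadjusted p under 0.05) and 0 in GMP GFP+ over PreGM GFP+ (1.02%, with 0 members at an unadjusted p under 0.05). Hlf was 8.38-fold lower in CLP than in LMPP (-3.07, SE 0.16, adjusted p = 3.93e-11) and 3.26-fold lower in PreGM GFP- than in LMPP (-1.70, SE 0.16, adjusted p = 2.22e-06). It was 2.27-fold lower in GMP GFP- than in PreGM GFP- (-1.18, SE 0.16, adjusted p = 0.000107). Each of these 3 calls held under all 15 alternatives tried. PreMegE and PreGM GFP+ did not overlap, at 8.04 ± 0.12 and 7.67 ± 0.14 (SD, n = 3 each), but the difference of 0.37 (95% interval 0.01 to 0.73) was not called over all genes.

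Mecom was highest in HSC GFP-, intermediate in LMPP and near the median signal elsewhere. Its log2 signal was 6.63, 6.66 and 6.86 in PreMegE, 6.52, 7.05 and 6.92 in GMP GFP+, 6.88, 6.64, 7.30 and 6.22 in GMP GFP- and 6.58, 6.35 and 6.38 in PreGM GFP+. It was 6.42, 6.71 and 7.00 in PreGM GFP- and 6.55, 6.22 and 6.44 in CLP, against 7.51, 7.37, 7.73 and 7.35 in LMPP and 7.79, 8.81 and 9.23 in HSC GFP-. No array of LMPP or of another progenitor reached the lowest HSC GFP- array, and none of the 6 lower groups reached LMPP. The difference from HSC GFP- was -1.89 in PreMegE, -1.78 in GMP GFP+, -1.85 in GMP GFP-, -2.17 in PreGM GFP+, -1.90 in PreGM GFP- and -2.21 in CLP (SE 0.25 to 0.27, adjusted p from 7.27e-06 to 0.000127), with the CLP and PreGM GFP+ means under the median signal. Of these 6 calls, that in PreMegE was lost when only the groups compared were fitted (adjusted p = 0.0614). In LMPP it was -1.12 (SE 0.25, adjusted p = 0.0155), a call that was lost without HSC GFP- array 2 (-1.02, adjusted p = 0.0887) or array 3 (-0.81, adjusted p = 0.135) or with only the groups compared fitted (adjusted p = 0.161), and grew to -1.53 without array 1. The deficit of CLP relative to LMPP (-1.09, SE 0.25, adjusted p = 0.0247) was lost without any 1 of the CLP arrays or without LMPP array 1 or 3 (adjusted p 0.0551 to 0.147), with the highest p without CLP array 2.

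The other probe set of Mecom gave the same directions with larger differences from HSC GFP-. Probe set 10497608, used above, matched 3 transcript records and probe set 10497590 matched 7, with 1 record in common. The signals of probe set 10497590 were 5.93, 6.01 and 5.78 in PreMegE, 5.80, 5.87 and 6.46 in GMP GFP+, 6.07, 5.73, 5.93 and 5.53 in GMP GFP- and 6.16, 6.07 and 5.78 in PreGM GFP+. They were 6.43, 6.08 and 6.39 in PreGM GFP- and 6.12, 5.73 and 5.28 in CLP, against 8.11, 7.42, 8.40 and 7.65 in LMPP and 9.98, 9.70 and 9.87 in HSC GFP-. On this probe set HSC GFP- array 1 was the highest of the 3, and the 6 populations below LMPP all lay under the median signal. The difference from HSC GFP- was -1.95 in LMPP (SE 0.22, adjusted p = 6.51e-06 over probe sets) and -3.55 to -4.14 in the others. For PreGM GFP- over LMPP it gave -1.60 (adjusted p = 0.000212), whereas the first probe set gave -0.78 (adjusted p = 0.213). For CLP over LMPP probe set 10497590 gave -2.18 (SE 0.22, limma adjusted p = 9.91e-07), against -1.09 on the first. Leaving out arrays was not tried on probe set 10497590. This use of each probe set was chosen after the values were seen, and which transcripts the cells held was not tested.

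**Figure D3:**
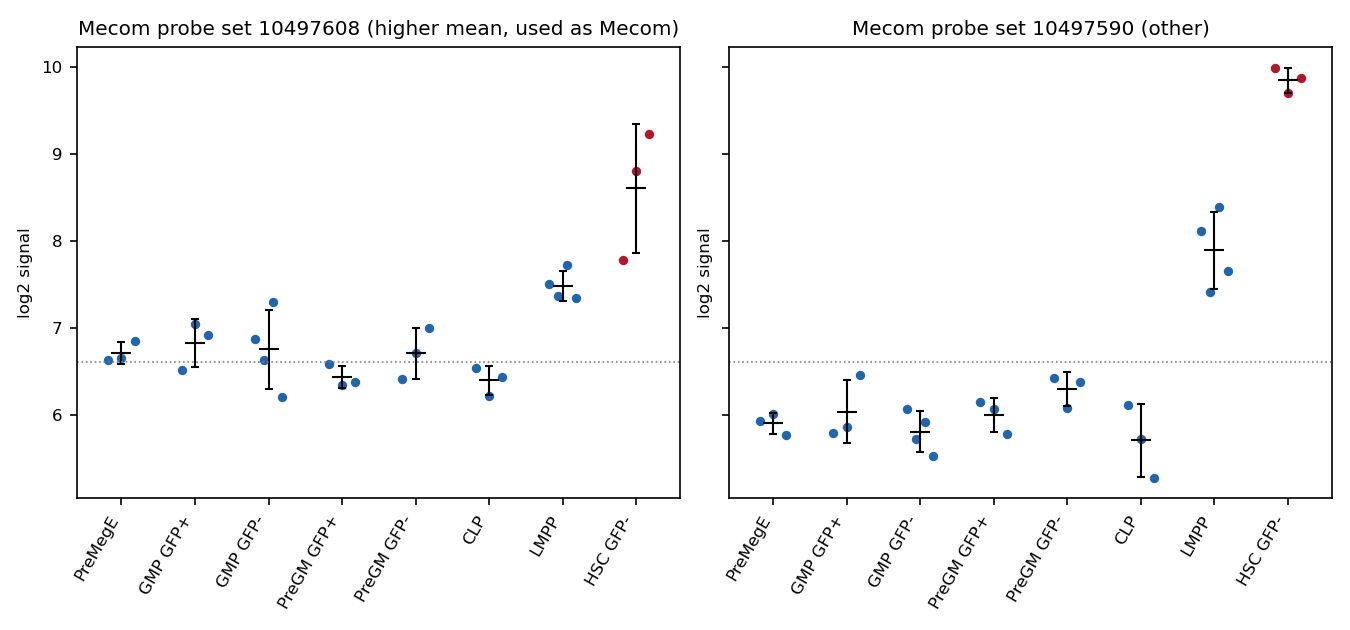
Log2 signal on each array of the 2 Mecom probe sets, with group mean and SD as bars, HSC GFP- in red and the median of all values dotted. On the right, the HSC GFP- arrays lie between 9.70 and 9.98, while on the left they spread from 7.79 to 9.23.

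Prdm16, the closest relative of Mecom, varied within a narrower range. Its signal was 7.34, 7.24 and 6.92 in PreMegE, 7.12, 7.15 and 7.01 in GMP GFP+, 7.00, 7.00, 7.06 and 6.82 in GMP GFP- and 7.13, 6.99 and 7.06 in PreGM GFP+. It was 6.99, 7.18 and 7.07 in PreGM GFP- and 6.93, 6.87 and 7.25 in CLP, against 7.18, 7.17, 7.24 and 7.50 in LMPP and 7.25, 7.89 and 8.01 in HSC GFP-. HSC GFP- arrays 2 and 3 lay above all other arrays, and array 1 fell among those of LMPP, PreMegE and CLP. Prdm16 was lower in GMP GFP- (-0.75, SE 0.15, adjusted p = 0.00112), which held under all 15 alternatives. In GMP GFP+, PreGM GFP+, PreGM GFP- and CLP it was called lower at -0.62, -0.65, -0.64 and -0.70. Without HSC GFP- array 3 these 4 calls were lost, at -0.47, -0.51, -0.49 and -0.55 (adjusted p 0.149, 0.121, 0.114 and 0.0578), as they were with only the groups compared fitted (adjusted p 0.237, 0.214, 0.259 and 0.202). Without HSC GFP- array 2 the first 3 were lost, at -0.53, -0.57 and -0.55 (adjusted p 0.112, 0.0930 and 0.0958), and 5 omissions of progenitor arrays also ended a call: GMP GFP+ array 1 or 3 (-0.63 and -0.58), PreGM GFP+ array 2 or 3 (-0.62 and -0.65) and PreGM GFP- array 1 (-0.60). Without HSC GFP- array 1 it was also called in PreMegE (-0.78, adjusted p = 0.00159) and LMPP (-0.68, adjusted p = 0.00551), which read -0.55 and -0.44 in the main fit. With all arrays, array weights gave both calls too (-0.72 and -0.55, adjusted p 0.00180 and 0.00997). Median centring gave the PreMegE call (-0.57, adjusted p = 0.0235).

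Meis1 followed another order from that of Hlf, being high in PreMegE and PreGM and lowest in GMP GFP- and CLP. Its signal was 9.87, 10.34 and 9.97 in PreMegE, 9.54, 9.40 and 9.30 in GMP GFP+, 7.12, 7.68, 8.72 and 7.68 in GMP GFP- and 9.88, 9.82 and 10.12 in PreGM GFP+. It was 9.75, 9.24 and 9.55 in PreGM GFP- and 8.64, 8.04 and 8.65 in CLP, against 10.27, 10.13, 10.41 and 10.49 in LMPP and 10.91, 11.11 and 11.11 in HSC GFP-. The HSC GFP- arrays lay above all others, LMPP overlapped PreMegE, and GMP GFP- array 3 overlapped CLP. Against HSC GFP- the signal was 9.49-fold lower in GMP GFP- (-3.25, SE 0.24, adjusted p = 2.49e-09), 6.07-fold in CLP, 3.10-fold in GMP GFP+, 2.89-fold in PreGM GFP-, 2.15-fold in PreGM GFP+ and 1.98-fold in PreMegE. The first 4 of these held under every alternative. The PreGM GFP+ call (-1.10, adjusted p = 0.0135) was lost without HSC GFP- array 2 or 3 or PreGM GFP+ array 1 or 2 (-1.07 to -1.05, adjusted p up to 0.0673), and the PreMegE call (-0.99, adjusted p = 0.0321) without any 1 of the HSC GFP- arrays or PreMegE array 1 or 3 (-1.05 to -0.89, adjusted p up to 0.144). Array weights with all arrays also ended the PreMegE call (-0.95, limma adjusted p = 0.0621), which held under 8 of 14 alternatives. LMPP, at -0.72 (95% interval -1.22 to -0.22, adjusted p = 0.153), was not called, except with only the groups compared fitted (adjusted p = 0.0338). Between progenitors, Meis1 was 3.68-fold lower in CLP than in LMPP (-1.88, SE 0.24, adjusted p = 3.21e-05) and 3.28-fold lower in GMP GFP- than in PreGM GFP- (-1.71, SE 0.24, adjusted p = 0.000137).

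Both gates were split by the reporter, and limma called 1 member in each. In PreGM it was Hlf, where 2.05% of all genes were called either way. Hlf averaged 7.67 ± 0.14 in PreGM GFP+ and 8.82 ± 0.33 in PreGM GFP- (SD, n = 3 each), which is 2.22-fold lower in reporter-positive cells (-1.15, SE 0.17, adjusted p = 0.000252). In GMP it was Meis1, where 7.27% of all genes were called either way. Meis1 averaged 9.41 ± 0.12 in GMP GFP+ (SD, n = 3) and 7.80 ± 0.67 in GMP GFP- (SD, n = 4), which is 3.06-fold higher in reporter-positive cells (1.61, SE 0.24, adjusted p = 0.000111). In both cases the arrays of the groups did not overlap, and both calls held under all alternatives tried, 14 for Hlf and 15 for Meis1. The mean over the neutrophil markers was 7.25 to 8.40 on GMP GFP+ and 8.67 to 10.76 on GMP GFP- arrays, and that over 7 B lymphoid markers 6.37 to 6.54 on PreGM GFP+ and 6.54 to 7.37 on PreGM GFP- arrays. The mean over the erythroid markers was 7.63 to 7.64 on PreGM GFP+ and 6.61 to 6.98 on PreGM GFP- arrays, and 7.31 to 7.42 on GMP GFP+ and 6.73 to 6.90 on GMP GFP- arrays. That over the megakaryocyte and platelet markers was 6.88 to 7.17 on PreGM GFP+ and 6.25 to 6.48 on PreGM GFP- arrays, and 6.50 to 6.61 on GMP GFP+ and 6.05 to 6.27 on GMP GFP- arrays. The source of these marker signals and their part in the differences were not tested.

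The difference between the gates was tested as an interaction. For Hlf the reporter effect was -0.10 (95% interval -0.44 to 0.24, and 0.01 without GMP GFP- array 3) in GMP, and it lay above that in PreGM by 1.05 (SE 0.24, adjusted p = 0.0349). Hlf was the 1 member called in this test, where 0.702% of all genes were called either way. This call held under only 6 of 21 alternatives, with adjusted p up to 0.124. It was lost without any 1 of the GMP GFP+ arrays, GMP GFP- array 1, 2 or 4, PreGM GFP+ array 2 or 3, or PreGM GFP- array 1 or 3, with values from 0.90 to 1.06. For Meis1 the reporter effect was 0.43 (95% interval -0.10 to 0.96) in PreGM, and the difference between gates of 1.19 (SE 0.35, adjusted p = 0.193) was not called, except without GMP GFP- array 3 (1.49, adjusted p = 0.00382). With all arrays, the effect of the reporter on Meis1 was not shown to differ between the gates. The other 7 members were called in neither gate. The widest of their 95% intervals, those of Hoxa5, ran from -1.06 to 0.38 in PreGM and from -0.46 to 0.89 in GMP.

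**Figure D4:**
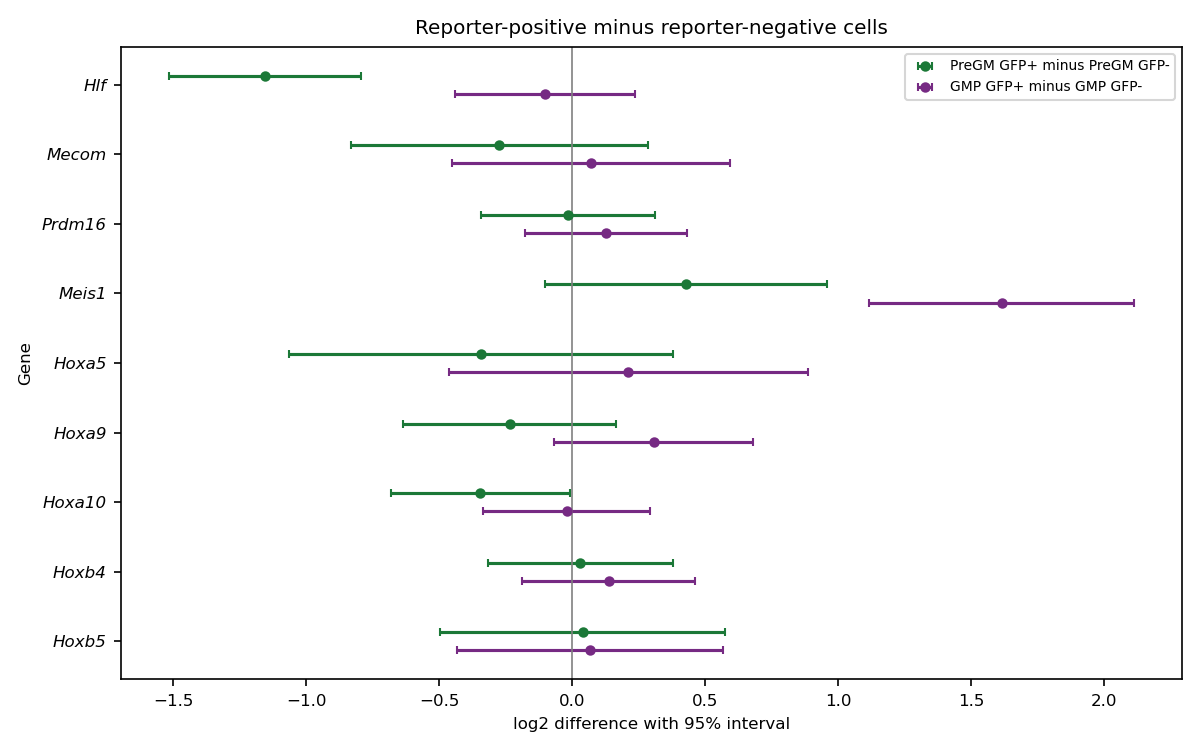
Log2 difference of reporter-positive minus reporter-negative cells (horizontal axis) with 95% intervals for the 9 genes, in PreGM (green) and GMP (purple). Hlf in PreGM (-1.15) and Meis1 in GMP (1.61) lie farthest from 0.

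Of the A cluster HOX genes, Hoxa9, a partner of Meis1, averaged 8.68 ± 0.34 (SD) over the 4 LMPP arrays, against 8.54 ± 0.14 (SD) over the 3 HSC GFP- arrays. Its signal was 7.98, 7.58 and 7.47 in PreMegE, 7.55, 8.11 and 7.92 in GMP GFP+, 7.27, 7.63, 7.69 and 7.61 in GMP GFP- and 7.99, 7.56 and 7.98 in PreGM GFP+. It was 8.24, 8.00 and 7.98 in PreGM GFP- and 7.99, 7.83 and 8.32 in CLP, against 8.88, 8.36, 9.04 and 8.42 in LMPP and 8.41, 8.52 and 8.68 in HSC GFP-. LMPP and HSC GFP- overlapped, and every array of the other 6 populations lay under both. The difference of LMPP from HSC GFP- was 0.14 (95% interval -0.24 to 0.51). Hoxa9 was lower in GMP GFP- (-0.99, SE 0.18, adjusted p = 0.000553), which held under all 15 alternatives, and in PreMegE (-0.86, adjusted p = 0.0109), which was lost without HSC GFP- array 3 (-0.79) or PreMegE array 3 (-0.76) or with only the groups compared fitted (adjusted p = 0.0710). The calls in PreGM GFP+ (-0.69, adjusted p = 0.0454) and GMP GFP+ (-0.68, adjusted p = 0.0485) held under only 5 of 14 alternatives each. Leaving out any 1 of the HSC GFP- arrays ended both (-0.76 to -0.60), as did any 1 of the PreGM GFP+ arrays for the first (-0.77 to -0.55) and GMP GFP+ array 1 or 3 for the second (-0.52 and -0.71). In PreGM GFP- (-0.46) and CLP (-0.49) it was not called.

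Hoxa5 was not called between LMPP and HSC GFP- either, and its arrays spread widely. Its signal was 7.23, 6.33 and 6.35 in PreMegE, 7.21, 6.06 and 6.90 in GMP GFP+, 6.56, 6.33, 6.53 and 6.62 in GMP GFP- and 6.99, 6.16 and 6.65 in PreGM GFP+. It was 6.94, 6.82 and 7.08 in PreGM GFP- and 7.06, 5.92 and 6.94 in CLP, against 8.01, 7.63, 7.65 and 7.15 in LMPP and 7.00, 7.85 and 8.41 in HSC GFP-. HSC GFP- array 1 lay within the range of 4 of the lower populations (PreMegE, GMP GFP+, PreGM GFP- and CLP), while arrays 2 and 3 lay above all of them. The call in GMP GFP- (-1.24, SE 0.33, adjusted p = 0.0122) was lost without HSC GFP- array 3 (-0.91, adjusted p = 0.105). In PreMegE, GMP GFP+, PreGM GFP+ and CLP the differences of -1.12, -1.03, -1.15 and -1.11 were not called. Without HSC GFP- array 1 all 4 were, at -1.49, -1.40, -1.53 and -1.49 (adjusted p 0.0196, 0.0250, 0.0157 and 0.0121), and so were PreMegE without its array 1 (-1.41) and CLP without its array 1 (-1.32). All 4 were also called with array weights and all arrays (adjusted p 0.00750, 0.0219, 0.0177 and 0.0203). A replicate block called CLP (adjusted p = 0.0364) and PreGM GFP+ (adjusted p = 0.0433), and a filter on dim genes CLP (adjusted p = 0.0474). LMPP differed by -0.14 (95% interval -0.82 to 0.53), and the sign turned without LMPP array 4 (0.01) or HSC GFP- array 3 (0.19).

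Hoxa10 had a group mean above the median signal in HSC GFP- only. Its signal was 6.48, 6.34 and 6.23 in PreMegE, 6.18, 6.26 and 5.79 in GMP GFP+, 6.34, 5.82, 5.97 and 6.25 in GMP GFP- and 6.19, 6.18 and 5.96 in PreGM GFP+. It was 6.48, 6.76 and 6.12 in PreGM GFP- and 6.33, 6.45 and 6.42 in CLP, against 6.51, 6.65, 6.39 and 6.69 in LMPP and 6.99, 6.62 and 6.90 in HSC GFP-. LMPP and PreGM GFP- overlapped HSC GFP-, and the other 5 did not. It was called lower in GMP GFP+ (-0.76, adjusted p = 0.00512), GMP GFP- (-0.74, adjusted p = 0.00159) and PreGM GFP+ (-0.73, adjusted p = 0.00906), the last being lost without HSC GFP- array 1 (-0.65, adjusted p = 0.0527) or PreGM GFP+ array 3 (-0.66, adjusted p = 0.0582). With only the groups compared fitted, the GMP GFP+ and PreGM GFP+ calls were lost (adjusted p 0.0796 and 0.0536). In each of these calls the progenitor mean lay under the median signal, where a signal was not shown to exceed background.

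Of the B cluster, Hoxb4, known for expanding stem cells when overexpressed, was lowest in CLP. Its signal was 7.38, 7.34 and 7.11 in PreMegE, 7.24, 7.48 and 7.40 in GMP GFP+, 7.10, 7.32, 7.12 and 7.40 in GMP GFP- and 7.36, 7.06 and 6.98 in PreGM GFP+. It was 7.12, 6.81 and 7.38 in PreGM GFP- and 6.83, 7.01 and 6.95 in CLP, against 7.25, 7.58, 7.47 and 7.39 in LMPP and 7.44, 8.06 and 8.19 in HSC GFP-. HSC GFP- array 1 fell within the LMPP range and under 1 GMP GFP+ array, and arrays 2 and 3 lay above all others. The signal was 1.95-fold lower in CLP (-0.97, SE 0.17, adjusted p = 0.000517) and lower by calls in PreGM GFP- (-0.79), PreGM GFP+ (-0.76), GMP GFP- (-0.66) and PreMegE (-0.62). The CLP and PreGM GFP- calls held without each array. When only the groups compared were fitted, every one of these calls was lost. The adjusted p was then 0.0607 in CLP, 0.193 in PreGM GFP-, 0.169 in PreGM GFP+, 0.0520 in GMP GFP- and 0.335 in PreMegE. The GMP GFP- call was lost without HSC GFP- array 3 (-0.51, adjusted p = 0.0582), and the PreGM GFP+ call without HSC GFP- array 2 (-0.68) or 3 (-0.62) or PreGM GFP+ array 3 (-0.68). The PreMegE call was lost without HSC GFP- array 2 (-0.54) or 3 (-0.47) or any 1 of the PreMegE arrays (-0.67 to -0.54). A replicate block also ended it (adjusted p = 0.0577). Without HSC GFP- array 1 Hoxb4 was also lower in LMPP (-0.70, adjusted p = 0.0115, against -0.47 with it) and in GMP GFP+ (-0.75, adjusted p = 0.00502, against -0.52). Array weights with all arrays gave calls there too (-0.64 and -0.69, adjusted p 0.00478 and 0.00345).

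Hoxb5, used elsewhere in mice as a marker of long-term stem cells, gave little signal. Its 26 arrays ran from 5.32 to 6.69, with 6.13, 6.08 and 6.69 in HSC GFP-, and every group mean lay under the median signal. The highest array outside HSC GFP- was PreMegE array 1 (6.66), and the other PreMegE arrays read 5.32 and 5.53. Differences from HSC GFP- ran from -0.72 to -0.46 and none was called, although 6 of 7 had an unadjusted p under 0.05. Without PreMegE array 1 (-0.87, adjusted p = 0.0323) or GMP GFP- array 4 (-0.84, adjusted p = 0.0259) it was called in that population. With array weights and all arrays, limma called Hoxb5 in LMPP, CLP, GMP GFP- and GMP GFP+ (adjusted p 0.0433, 0.0259, 0.00489 and 0.0444). With a replicate block it was called in GMP GFP- (-0.78, adjusted p = 0.0459).

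Set against the rest of the HOX clusters, of which 32 of 34 other genes were measured, only Hoxa3 and Hoxa6 were called against HSC GFP-. Both were lower in PreMegE, GMP GFP-, PreGM GFP+, PreGM GFP- and CLP, Hoxa3 alone in GMP GFP+, and none of the 32 in LMPP, where limma gave 3 with an unadjusted p under 0.05. Hoxa6 ran from -0.73 in PreGM GFP+ to -0.56 in PreMegE, and Hoxa3 from -0.81 in GMP GFP- to -0.51 in PreGM GFP-, with all called means of Hoxa3 under the median signal. The median of the 32 genes lay between -0.11 and 0.01, near that of all genes. By cluster, 7 of 10 measured A genes and 5 of 9 B genes had a group mean above the median signal, against 0 of 9 C genes and 1 of 9 D genes (Hoxd10, 6.74 in HSC GFP-). Hoxa4, at 8.36 in HSC GFP-, and Hoxa7, at 7.51, were above it but not called, with differences of -0.34 to -0.10 and -0.37 to -0.21.

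**Figure D5:**
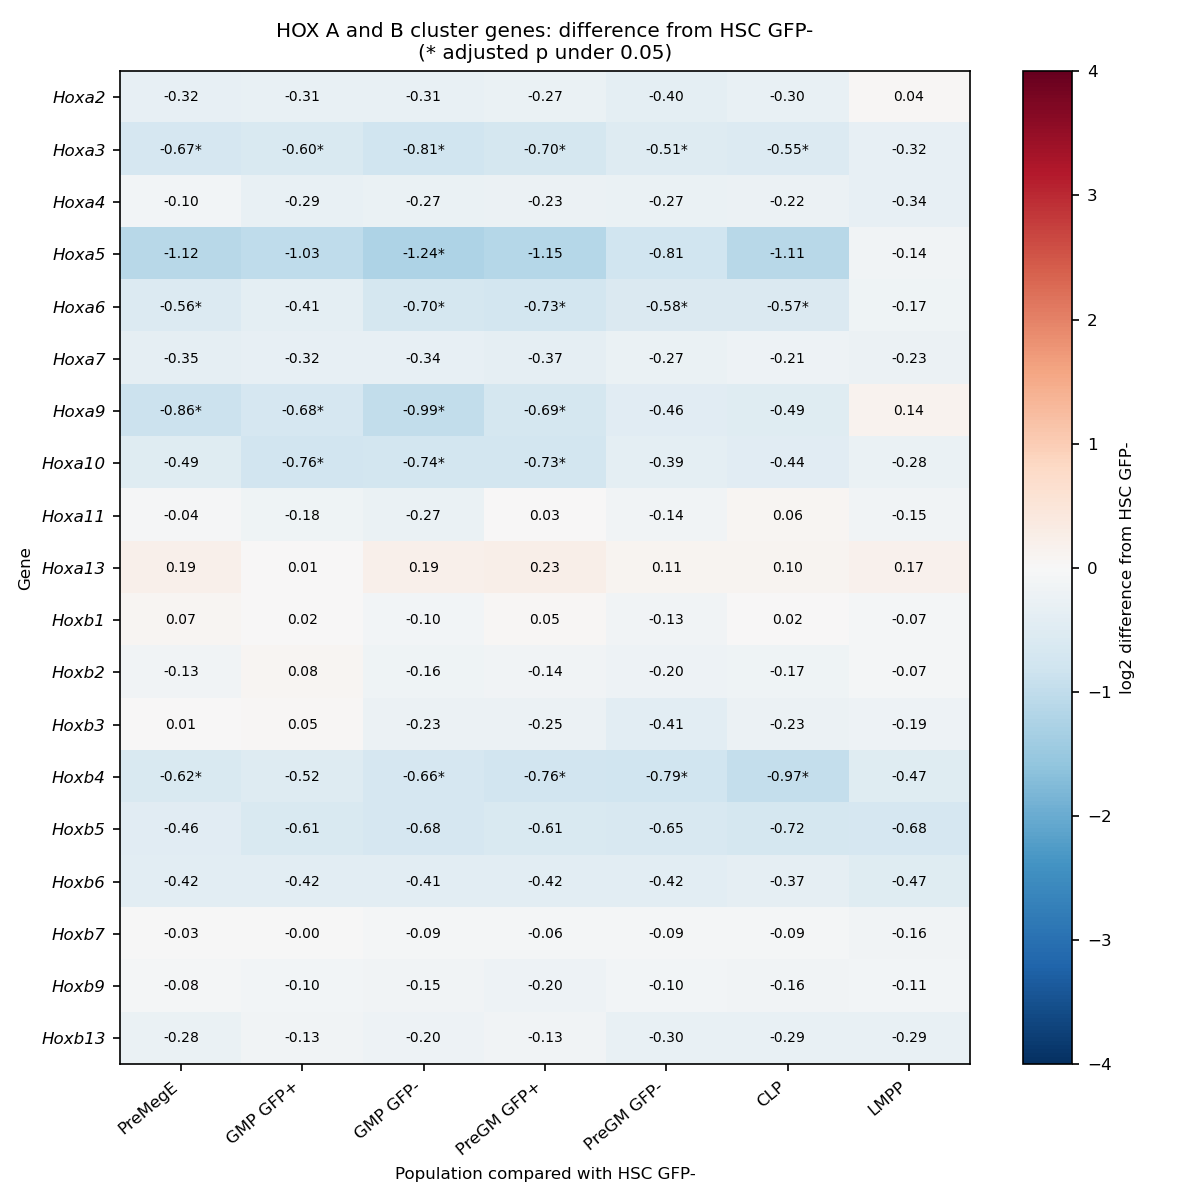
Log2 difference of each population (columns) from HSC GFP- for the measured genes of the HOX A and B clusters (rows), with an asterisk where the adjusted p of limma is under 0.05. Called genes are Hoxa3, Hoxa5, Hoxa6, Hoxa9, Hoxa10 and Hoxb4, all with differences below 0.

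Fewer genes were called among the partners and relatives of these factors. Of 9 measured TALE partners, limma called 0 against HSC GFP- (0 or 1 per comparison at an unadjusted p under 0.05), and Pbx4 was higher in reporter-positive GMP by 0.38 (adjusted p = 0.0422). Of 11 measured PRDM relatives it called 0 in every comparison (0 to 2 at an unadjusted p under 0.05). Of the 3 bZIP relatives of Hlf, Nfil3, a repressor that binds the same sites, was higher in CLP (1.51, adjusted p = 0.0356) and GMP GFP- (1.49, adjusted p = 0.0146) than in HSC GFP-. Of 15 HOX upstream regulators, Mllt3, a cofactor of transcription elongation needed in human stem cells, was lower in all 7 populations, from -2.46 in CLP to -1.55 in PreMegE (adjusted p up to 3.85e-05). Mllt3 is also on the list of surface and niche genes. Kmt2a, the histone methyltransferase that maintains HOX expression, was lower in PreGM GFP- (-0.99, adjusted p = 0.0420) and GMP GFP- (-0.96, adjusted p = 0.0157), and the Polycomb methyltransferase Ezh2 was higher in CLP (0.99, adjusted p = 0.00340).

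Other factors of stem cells did not all follow the same course. Of 18 on the list, 3 were lower and 1 higher in PreMegE, 5 and 3 in GMP GFP+, 12 and 0 in GMP GFP-, 5 and 2 in PreGM GFP+, 6 and 0 in PreGM GFP-, 10 and 0 in CLP and 3 and 0 in LMPP. The median of the list ran from -0.72 in GMP GFP- to -0.23 in PreMegE, while that of all genes was -0.05 and 0.03 there. Msi2, an RNA-binding protein of stem cells, was called lower in each population but LMPP, from -2.09 in GMP GFP- to -1.29 in CLP. Gata2, required for stem cell survival and used in mast cell development, was lower in LMPP (-1.02) but higher in PreGM GFP+ (0.94), and Ikzf2 was lower in CLP (-2.12) but higher in GMP GFP+ (1.53). Among 12 measured surface and niche genes, 5 were lower in PreMegE, 8 in GMP GFP+, 11 in GMP GFP-, 6 in PreGM GFP+, 9 in PreGM GFP-, 10 in CLP and 8 in LMPP, with medians from -1.41 in CLP to -0.78 in PreMegE. That list names Slamf1 (CD150), Ly6a (Sca1) and Kit, antigens of the gates, so part of these counts and medians was set by the sort. Beside both lists, limma called lower 1.28% (LMPP) to 5.81% (GMP GFP-) of all genes against HSC GFP-. It called higher 0.988% (PreMegE) to 7.10% (GMP GFP-). Angpt1, a ligand of the Tie2 receptor, was higher in reporter-positive GMP, as Meis1 was, at 10.38 in GMP GFP+ against 7.05 in GMP GFP- (3.33, adjusted p = 6.18e-08).

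Across the 8 group means, the gene most like Hlf among 2460 genes that varied by at least 1 log2 unit was Emcn, the sialomucin endomucin (r = 0.995), which averaged 7.33 in LMPP and 7.60 in HSC GFP- and 5.18 to 5.99 elsewhere. Ppp2r3a and Ltb followed (r = 0.982 each). For Mecom these were Tceal5 (0.988), Stk39 (0.978) and Procr (0.975), the protein C receptor used to sort stem cells, which averaged 7.85 in HSC GFP- and at most 6.77 elsewhere. For Meis1 they were Prkcq (0.977), Ctla2a (0.972) and Bex4 (0.971), and for Prdm16 Dst (0.994), Slc27a6 (0.989) and Tceal5 (0.986). For Hoxa5 they were Emcn (0.986), Tnip3 (0.979) and Ppp2r3a (0.977), for Hoxa9 Prrg4 (0.962), Slfn5 (0.961) and Cnrip1 (0.957), and for Hoxa10 Erg (0.966), Itih5 (0.959) and Ppp1r9a (0.954). For Hoxb4 they were Golph3l (0.970), Arxes2 (0.961) and Tbxas1 (0.957), and for Hoxb5 Plscr4 (0.985), Mtss2 (0.980) and Dlg2 (0.978). Between 17 (Hoxa10) and 102 (Prdm16) genes had r above 0.9, so none of these neighbours stands alone. Among the members themselves, r ran from 0.37 for Hoxa9 and Hoxb5 to 0.98 for Hlf and Hoxa5. These are descriptions over 8 points that share arrays and a high value in HSC GFP-. The members were not held to the range of 1 log2 unit. The group means of Hoxb5 spread over 0.72, those of Prdm16 over 0.75, of Hoxa10 over 0.76 and of Hoxb4 over 0.97. All group means of Hoxb5 lay under the median signal, so its likeness rests on a signal not shown to exceed background.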

How the data were processed

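The authors deposited 1 table of log2 signals per probe set for 26 arrays (Mouse Gene 1.1 ST, per the labels). Per the submitters' processing notes, the deposited log2 values came from RMA and oligo, without versions; the base of the logarithm is not given in the sources used here, and 2 was taken. Of 35556 probe sets, 21789 named 1 gene in the annotation used, that of the 1.0 ST array, 1621 several and 12146 none; the last 2 kinds were left out. The probe set with the highest mean gave 19938 genes. All 8 groups were fitted together with limma 3.58.1 in R 4.3.3, Benjamini-Hochberg adjusted over all genes within each comparison and called at 0.05; 95% intervals come from the same fit and are unadjusted. The procedure was tested on simulated data.

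The members, the related gene lists and the comparisons were chosen with earlier results of these data known. All members may be named. From each list up to 4 called genes of largest difference were named, and for likeness the 3 genes with the highest Pearson r, passing over model, clone and small RNA symbols, olfactory and vomeronasal receptors, antigen receptor segments and members. Hoxd10, Hoxa4, Hoxa7 and the marker genes named beside the lists were chosen after their values were seen. In 0 of 28 pairs of groups did all deviations of same-numbered arrays correlate over 0.1 (range -0.26 to 0.33). By this rule the numbers were not used as pairs. Some pairs of groups had only values above 0, such as LMPP and PreGM GFP- (0.0996 to 0.33). Others reached below 0, such as PreGM GFP- and GMP GFP- (-0.26 to 0.03). A weak shared deviation is thus not excluded. Alternatives were a replicate block, array weights, median centring, the mean of probe sets, a filter on dim genes, a variance trend with a robust prior, only the groups compared, leaving out each array, and each probe set tested.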

Additional observations from a re-analysis of the deposited data

Results flagged for a closer look

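The reporter effect on Hlf differed between the gates by the interaction term of the fit: it was higher in GMP than in PreGM by 1.05 on the log2 scale (limma adjusted p = 0.0349), with effects of -0.10 in GMP and -1.15 in PreGM. The call was kept in 6 of 21 alternatives. In the 2 groups of 4 arrays, none of 18 values of the members had an array past Dixon's 95% critical value.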

How the results depend on the processing

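Of 1992 single-member alternatives, 93 lost and 35 gained a call. The sign turned in 73, of which 0 concerned a difference called in either fit and 2 a comparison with HSC GFP- (Hoxa5 in LMPP). For Mecom, its other probe set turned GMP GFP- over PreGM GFP- to -0.49, against 0.05, and PreMegE over PreGM GFP+ to -0.10, against 0.28. Of called differences, 25 of 47 kept the call in all. Fitting only the groups compared, with less information on the spread, gave 264 genes and 2 members in PreMegE against HSC GFP-, 499 and 3 in GMP GFP+, 389 and 3 in PreGM GFP+, 293 and 3 in PreGM GFP-, 632 and 3 in CLP and 228 and 1 in LMPP (from 634, 817, 723, 949, 1218 and 462 genes). It gave 217 genes between the PreGM groups, 165 in CLP and 66 in PreGM GFP- against LMPP, 0 in PreMegE and 116 in GMP GFP+ against PreGM GFP+, 174 in GMP GFP- against PreGM GFP-, and 0 members for the interaction (from 408, 314, 174, 13, 203 and 277 genes and 1 member). Array weights gave 1302 genes in GMP GFP+, 4049 in GMP GFP-, 382 in PreGM GFP- and 842 in LMPP against HSC GFP-, 5 members in LMPP, 213 and 2799 genes (from 1449) between the PreGM and GMP groups, 581 genes and 5 members in CLP and 46 genes in PreGM GFP- against LMPP, 21 and 348 in PreMegE and GMP GFP+ against PreGM GFP+, 99 in GMP GFP- against PreGM GFP-, 4649 over all groups (from 3036) and 0 members for the interaction. The replicate block and median centring each gave 8 genes in PreMegE against PreGM GFP+ and 0 members for the interaction. The variance trend also gave 0 for the interaction. With the block, whose numbers were not shown to mark pairs, 4 member calls were lost and 3 gained. The mean of probe sets and each probe set tested gave 2 members in PreGM GFP- against LMPP, by Mecom. For those that moved beyond 1.5 times the cause was not tested.

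Leaving out 1 array gave these ranges: members 2 to 6 in PreMegE, 3 to 6 in PreGM GFP+ and 1 to 3 in LMPP against HSC GFP-, and 0 to 2 for the interaction; genes 447 to 600 in PreGM GFP+ and 621 to 1078 in PreGM GFP- against HSC GFP-, 199 to 372 in CLP and 110 to 169 in PreGM GFP- against LMPP, 7 to 11 in PreMegE against PreGM GFP+ and 880 to 1317 between the GMP groups. Groups of 3 or 4 arrays limit what can be called. The group means of Hoxb5, and those of Hoxa10 outside HSC GFP-, lie under the median signal and were not shown to exceed background.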
